A study of Mus musculus with 4 samples.

Results

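The 10 genes described here are the coactivator genes Yap1 and Wwtr1 (Wwtr1 encodes TAZ), the genes of the 4 TEAD transcription factors (Tead1, Tead2, Tead3 and Tead4) and the target genes Ctgf, Cyr61, Ankrd1 and Amotl2. They were taken by symbol from 21862 genes that each library listed once, and all 10 were found. Expression was measured by RNA sequencing in N31 cells, an established mouse neural progenitor cell (NPC) line that was differentiated from iPSCs and carries Dox-inducible Oct4, Klf4, c-Myc and Sox2 transgenes with rtTA. The 4 libraries were from N31 cells (control) and from N31 cells expressing shSrf#1, a hairpin RNA against Srf delivered with a retroviral vector (Srf knockdown), each on a type I collagen-coated matrix of 0.5 kPa, a stiffness near that of brain, or of 12 kPa, and all without EGF and bFGF. Every condition had 1 library, and a single hairpin was used. The methods state that virus-infected cells were selected with puromycin. They do not state whether the control cells carried an empty or control vector. An effect of Srf loss, of the vector, of drug selection and of culture therefore cannot be told apart, and no p-value is given.

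YAP and TAZ are transcriptional coactivators that do not bind DNA themselves. When the Hippo kinases MST and LATS phosphorylate them, they are held in the cytoplasm or degraded. When the kinases are inactive, or when cells spread on stiff matrix and build up actin tension, they enter the nucleus, bind TEAD factors and switch on genes such as Ctgf and Cyr61. Actin tension also drives Srf through its cofactor Mkl1, and several YAP/TAZ target genes are known to respond to both. This regulation acts mainly on the location and phosphorylation of the YAP and TAZ proteins, which RNA levels do not show.

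TEAD factors bind the motif CATTCC, which reads GGAATG on the other strand. RefSeq gave the 250 bases before an annotated start site on GRCm38 (mm10) for 7 of the 10 genes, in 10 start-site windows, and the windows were searched for the motif on both strands. Of these windows, 8 held it, in 6 of the 7 genes, against 12.6% of all 32851 windows of this length. Windows of 1 gene can overlap and share a match, and the targets were listed as known target genes. An enrichment of the motif was therefore not tested. The windows of Ankrd1 and Cyr61 are shown in full, with the motif in capitals. These targets had the lowest and the highest mean log2 ratio of Srf knockdown to control, before the adjustment for GC content given below.
Ankrd1, chr19:36119845-36120094, minus strand: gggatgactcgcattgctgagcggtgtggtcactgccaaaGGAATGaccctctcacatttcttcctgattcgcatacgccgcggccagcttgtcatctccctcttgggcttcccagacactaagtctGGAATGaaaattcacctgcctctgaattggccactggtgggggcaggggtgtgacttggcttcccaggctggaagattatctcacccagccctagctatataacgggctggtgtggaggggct
Cyr61, chr3:145649986-145650235, minus strand: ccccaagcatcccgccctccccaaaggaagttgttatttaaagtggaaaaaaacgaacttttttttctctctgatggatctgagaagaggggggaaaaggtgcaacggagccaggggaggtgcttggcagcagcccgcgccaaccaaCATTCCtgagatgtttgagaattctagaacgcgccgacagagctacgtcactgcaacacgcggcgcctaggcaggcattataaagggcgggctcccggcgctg
Ankrd1 held 2 matches, which begin 210 and 123 bases before the start site, and Cyr61 held 1, which begins 103 bases before it. A stretch of 30 bases around the match is shown for Amotl2 and for the genes of the pathway that held one in their own windows.
Amotl2, chr9:102717727-102717756, plus strand: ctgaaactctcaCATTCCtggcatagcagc
Yap1, chr9:8004720-8004749, minus strand: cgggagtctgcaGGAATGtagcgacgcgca
Wwtr1, chr3:57576029-57576058, minus strand: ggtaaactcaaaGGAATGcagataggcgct
Tead3, chr17:28350706-28350735, minus strand: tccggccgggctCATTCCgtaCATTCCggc
The Tead3 stretch lies in 1 of its 3 windows and holds 2 matches side by side, and another of its windows holds 1 match. The 2 windows of Wwtr1 overlap and share their match. The window of Tead2 held none. The CArG box, the motif of Srf, was searched for only in its exact form, which is CC, a run of A or T bases and GG. It was in none of the 10 windows and in 1.47% of all windows. Forms with a mismatch and sites outside the windows were not searched, so a lack of Srf sites is not shown. No window was given for Ctgf, Tead1 and Tead4. A match of letters is a description and does not show that the site is used.

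The control libraries held an estimated 29100000 (0.5 kPa) and 24100000 (12 kPa) reads, and the Srf-knockdown libraries 45000000 and 62300000. Depth thus differed along with the knockdown. The members rested on 97 or more estimated reads in each library. The level of Srf was 34.4 and 35.6 FPKM in control NPCs on the 0.5 and 12 kPa matrices, against 16.2 and 17.4 after knockdown. Of 12 NPC markers, 5 (Nes, Sox2, Pax6, Vim and Slc1a3) had an FPKM above 2 in all libraries, and Sox1, Hes5 and Olig2 were listed at 0 in all of them. The NPC markers moved with the knockdown in both directions. Nes was at 51.6 and 36.1 in control against 16.4 and 15.5 in Srf-knockdown NPCs, and Sox2, of which the line also carries a transgene, at 4.29 and 5.49 against 19.1 and 20.4. Of 10 mesenchymal markers, 8 were above 2, with a summed FPKM of 3260 and 3045 in control against 3028 and 3114 in Srf-knockdown NPCs. Within this list, Postn was at 188 and 259 in control against 30.2 and 36.8 in Srf-knockdown NPCs, and Col1a2 was lower as well (log2 ratios of -0.75 and -0.52), while Dcn (1.54 and 1.60) and Pdgfrb (0.61 and 0.72) were higher. Single markers of other cell types moved with the knockdown too. The summed FPKM of 6 neuron markers was 52.6 and 56.8 in control against 120 and 116 in Srf-knockdown NPCs, with Tubb3, Map2 and Stmn2 above the minimum, most of the difference in Stmn2 (19.1 and 18.7 against 64.6 and 61.3) and Map2, and Rbfox3 at 0 in every library. The sum of 6 epithelial markers was 46.7 and 34.1 against 93.3 and 81.8, with Epcam, Krt8, Krt18 and Krt19 above the minimum and Cdh1 below it. Krt8 and Krt19 made up most of this difference, while Epcam was at 3.04 and 2.30 against 2.45 and 2.22. The sum of 5 endothelial markers, none of which was above the minimum in all libraries, was 1.35 and 1.48 against 6.03 and 5.97, nearly all of it from Emcn (0.806 and 0.844 against 5.29 and 4.92), while Cdh5 and Kdr were near or at 0. The part of these cell type markers in the differences given below was not tested. In bulk RNA, fewer cells that express a gene and less RNA per cell cannot be told apart.

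**Figure D1:**
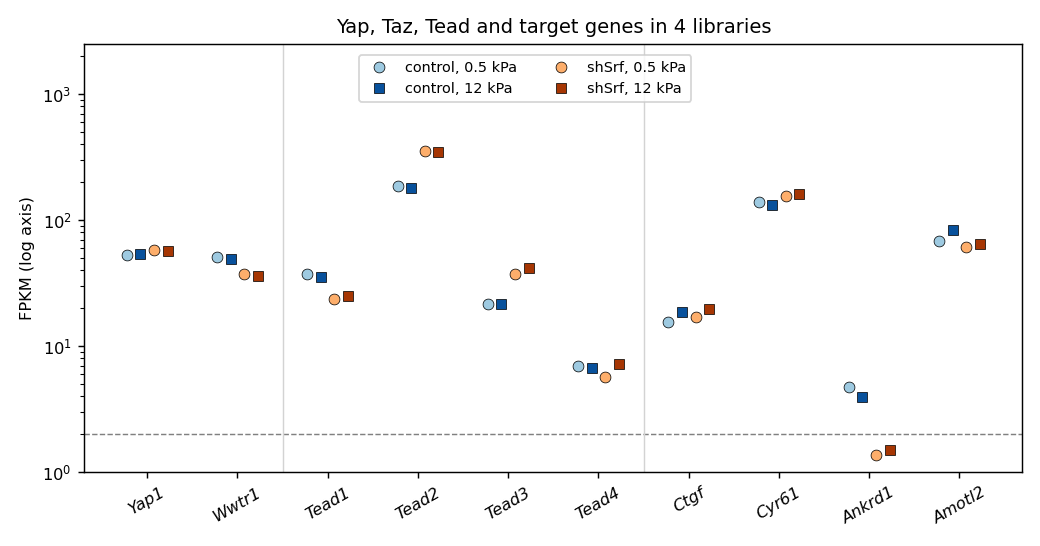
FPKM (log axis) of the 10 genes in each of the 4 libraries, 1 point for each library, with the inclusion minimum of 2 as a dashed line. Tead2 is the highest in every library, both Srf-knockdown libraries lie above both control libraries for Yap1, Tead2, Tead3 and Cyr61 and below them for Wwtr1, Tead1, Ankrd1 and Amotl2, and Ankrd1 drops below the minimum in both Srf-knockdown libraries.

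The NPCs expressed the whole set of coactivators and TEAD factors. Levels are given as FPKM, in which reads are divided by transcript length and library size, so that genes can be roughly compared. Effects of the GC content of transcripts are not removed, and counting errors do not cover them. Yap1 stood at an FPKM of 52.8 in control NPCs at 0.5 kPa, 54.1 in control at 12 kPa, 58.0 in Srf knockdown at 0.5 kPa and 56.9 in Srf knockdown at 12 kPa. Wwtr1 had 50.9 and 48.8 in control against 37.7 and 36.2 in Srf-knockdown NPCs. The coactivator genes were thus expressed at a like level in control NPCs, and in the Srf-knockdown libraries both values lay above control for Yap1 and below control for Wwtr1. Such a separation of the 2 Srf-knockdown from the 2 control libraries was common, since 39.8% of the genes above an FPKM of 2 in every library had both values above control and 37.6% had both below. The FPKM of Yap1 divided by that of Wwtr1 was 1.04 and 1.11 in control against 1.54 and 1.57 in Srf-knockdown NPCs, while the sum of both stayed between 93.1 and 104. In mm10, Yap1 lies on chromosome 9 from 7931999 to 8004638 and Wwtr1 on chromosome 3 from 57455644 to 57575910.

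Among the TEAD genes the levels were far apart. Tead2, which encodes a TEAD factor known for its expression in early embryonic and neural progenitor cells (chromosome 7, 45215792 to 45233468), stood at an FPKM of 186 and 179 for control NPCs at 0.5 and 12 kPa, against 353 and 348 after Srf knockdown. Tead3 (chromosome 17, 28331671 to 28350805) had 21.44 and 21.43 in control against 37.7 and 41.4 in Srf-knockdown NPCs. Tead1, the most broadly expressed family member in adult tissues (chromosome 7, 112679356 to 112906784), had 37.4 and 35.3 in control against 23.8 and 25.2 in Srf-knockdown NPCs. For these 3 genes the control and Srf-knockdown libraries did not overlap, with Tead2 and Tead3 higher and Tead1 lower after Srf knockdown. Tead4, known from the trophoblast lineage and from muscle (chromosome 6, 128227143 to 128300813), had 6.92 and 6.72 in control against 5.66 and 7.19 in Srf-knockdown NPCs, so that its groups overlapped.

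**Figure D2:**
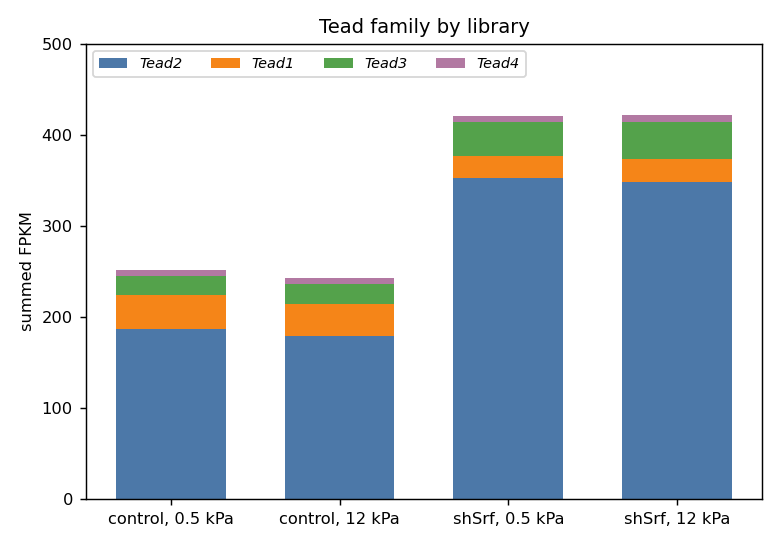
Summed FPKM of the 4 TEAD genes in each library, 1 bar for each library, divided by gene. The bars reach 252 and 243 for control against 420 and 422 for Srf-knockdown NPCs, and Tead2 makes up most of each bar.

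The summed TEAD level was 252 and 243 FPKM in control against 420 and 422 in Srf-knockdown NPCs, which is 1.67-fold higher at 0.5 kPa and 1.74-fold higher at 12 kPa. Tead2 supplied most of it, with a share of 73.9% in both control libraries and of 84.0% and 82.5% in the Srf-knockdown libraries. The share of Tead1 was 14.8% and 14.5% in control against 5.66% and 5.96% in Srf-knockdown NPCs, while that of Tead3 stayed between 8.51% and 9.81%. Without Tead2 the sum was 65.7 and 63.5 FPKM in control against 67.1 and 73.7 in Srf-knockdown NPCs. The TEAD sum was 2.43 and 2.36 times the coactivator sum in control against 4.40 and 4.53 times in Srf-knockdown NPCs. These are ratios of RNA levels and do not give protein amounts. The sums and shares are not adjusted for the GC content of transcripts. The differences of Tead2 and Wwtr1 between Srf-knockdown and control NPCs were smaller after such an adjustment, as given below.

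The target genes were expressed over a wide range. Cyr61, which encodes the secreted matricellular protein CCN1 (chromosome 3, 145646971 to 145649985), stood at an FPKM of 138 and 131 in control against 155 and 162 in Srf-knockdown NPCs. Ctgf, which encodes its relative CCN2 (chromosome 10, 24595442 to 24598683), had 15.5 and 18.5 in control against 17.1 and 19.6 in Srf-knockdown NPCs. Cyr61 was therefore 7.09 to 9.06 times as high as Ctgf. Amotl2, which encodes a motin that binds YAP and acts as a feedback inhibitor (chromosome 9, 102717091 to 102733418), had 68.3 and 83.4 in control against 60.9 and 64.2 in Srf-knockdown NPCs. Ankrd1, which encodes an ankyrin repeat protein of muscle that is also a common YAP reporter gene (chromosome 19, 36111965 to 36119844), was the lowest of the members, with 4.72 and 3.97 in control against 1.38 and 1.5 in Srf-knockdown NPCs. Control and Srf-knockdown libraries did not overlap for Cyr61, Amotl2 and Ankrd1, and they overlapped for Ctgf. Of the 9 members above an FPKM of 2 in every library, 4 thus lay above control in both Srf-knockdown libraries and 3 below. These shares were near those of all genes above that level (39.8% above and 37.6% below). In control NPCs the order of levels was Tead2, Cyr61, Amotl2, Yap1, Wwtr1, Tead1, Tead3, Ctgf, Tead4 and Ankrd1 at both stiffnesses. In Srf-knockdown NPCs Tead3 stood above Wwtr1, by 0.19 on the log2 scale at 12 kPa, and at 0.5 kPa these genes differed by less than counting error. The spread between libraries of 1 condition was not measured for any of these levels.

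Srf-knockdown and control NPCs were then compared at each stiffness. These comparisons share no library. As in the methods of the study, genes were included where all 4 libraries passed an FPKM of 2, which held for 10489 genes and for 9 of the members, and a gene was called higher or lower beyond a ratio of 1.1-fold. At 0.5 kPa, 4 of the 9 included members were higher in Srf-knockdown NPCs and 4 were lower, where 37.4% and 35.7% of all included genes were. At 12 kPa, 3 were higher and 3 lower, where 37.6% and 35.9% of all included genes were. The members called the same way at both stiffnesses were Tead2, Tead3 and Cyr61, which were higher, and Wwtr1, Tead1 and Amotl2, which were lower, against 30.3% and 28.8% of included genes. The median log2 ratio of the 9 members was 0.13 at 0.5 kPa and 0.08 at 12 kPa, where that of all included genes was 0.011 and 0.010. At this threshold a difference between the cell populations was thus usual for any gene. Beyond 1.5-fold at both stiffnesses, Tead2 and Tead3 were higher, against 6.63% of included genes, and no included member was lower, against 6.17%. At 0.5 kPa alone, Tead1 was lower by more than 1.5-fold as well. Of all included genes, 9.19% were higher and 9.28% lower by that much at 0.5 kPa, and 10.2% and 8.88% at 12 kPa. No included member passed 2-fold, where 2.45% were higher and 2.86% lower at 0.5 kPa and 2.74% and 2.22% at 12 kPa. Ankrd1, which is described with the other targets below, stands outside these counts because its values in Srf-knockdown NPCs fell under the minimum, and its ratios were past 2-fold.

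**Figure D3:**
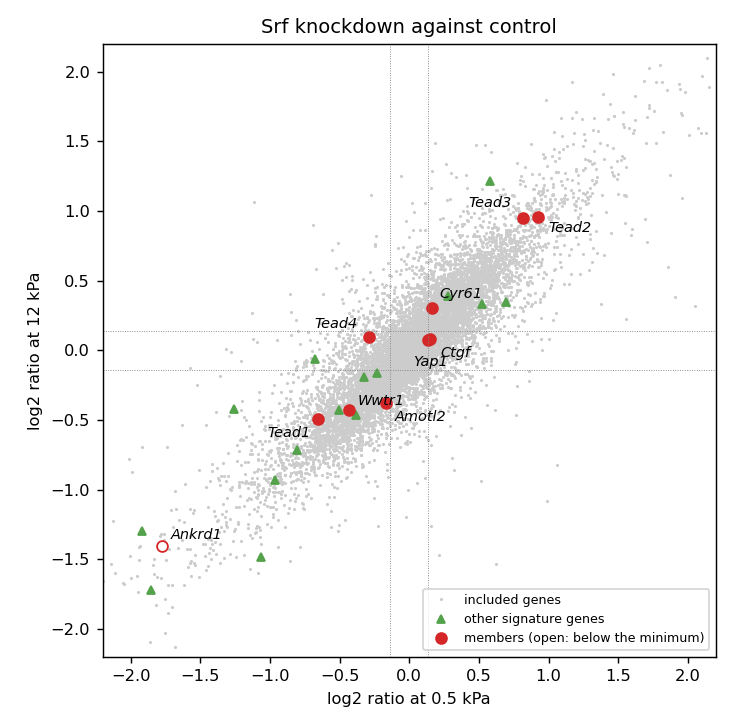
Srf-knockdown over control NPCs as a log2 ratio at 0.5 kPa (x axis) and at 12 kPa (y axis) for included genes (grey), the 10 members (red, open for Ankrd1, which was below the minimum) and the other signature genes (green), with dotted lines at 1.1-fold; 62 included genes lie outside the axes. Tead2 and Tead3 lie near each other between 0.81 and 0.96 on both axes, and Ankrd1 lies at -1.78 and -1.41.

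The log2 ratio of Srf knockdown over control was 0.92 at 0.5 kPa and 0.96 at 12 kPa for Tead2, a fold of 1.9 and 1.94, with a standard error from counting reads of 0.013 at both. For Tead3 it was 0.81 (1.76-fold) and 0.95 (1.93-fold), with counting errors of 0.042 and 0.043. Of all included genes, 3.18% at 0.5 kPa and 3.05% at 12 kPa had a ratio as high as that of Tead2. The transcripts of Tead2 and Tead3 had a GC content of 57.9% and 59.5%. Once ratios were centred among genes of like GC content, they were 0.78 and 0.68 for Tead2 and 0.62 for Tead3 at both stiffnesses.

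The log2 ratios of Tead1 were -0.65 (0.5 kPa) and -0.49 (12 kPa), with a counting error of 0.020 at both. Wwtr1 had -0.43 at both, with a counting error of 0.024 at both. With this centring they were -0.59 and -0.39 for Tead1, and -0.33 and -0.24 for Wwtr1, so that both were still lower by more than 1.1-fold. Yap1 had 0.13 and 0.07, within 1.1-fold, and it passed 1.1-fold at 0.5 kPa only after this centring (0.15). Tead4 had -0.29 at 0.5 kPa and 0.10 at 12 kPa, with counting errors of 0.080 and 0.078, and these were -0.43 and -0.18 after centring, so that Tead4 was then lower by more than 1.1-fold at both. The members of the coactivator and TEAD families thus differed among themselves in direction, and a direction for the families as a whole is not given.

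The targets did not move together. Ankrd1 had a log2 ratio of -1.78 at 0.5 kPa, which is 3.43-fold lower, and of -1.41 at 12 kPa, which is 2.65-fold lower, with counting errors of 0.18 and 0.17. It was not among the included genes because its FPKM was under 2 in Srf-knockdown NPCs, and it has no GC-centred ratio. Of included genes, 0.534% at 0.5 kPa and 0.877% at 12 kPa had a ratio as low. The included genes leave out those that, like Ankrd1, fell under the minimum in Srf-knockdown NPCs. These shares can therefore be too small for genes at the level of Ankrd1. With a pseudocount of 1 the ratios were -1.27 and -0.99. Amotl2 had -0.17 and -0.38, which became -0.32 and -0.58 after centring for GC content. Cyr61 went the other way, with 0.17 and 0.30, which became 0.06 and 0.15 after centring, so that the call at 0.5 kPa rested on the uncentred ratio. Ctgf had 0.15, just past the log2 threshold of 0.138, and 0.08, with counting errors of 0.058 and 0.054. After centring it had 0.09 at 0.5 kPa, within the threshold, and -0.0006 at 12 kPa. Ankrd1, with 2 motif matches before its start site, had the lowest ratio of the targets at each stiffness. Cyr61, with 1 match, had the highest uncentred ratios. At 0.5 kPa it was above Ctgf (0.17 against 0.15) by less than the counting error of Ctgf, and after centring Ctgf was the higher (0.09 against 0.06). Amotl2 also held 1 match and was lower, and Ctgf had no window. Why the targets differ was not tested.

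Stiffness was compared within each cell population, and here the differences were smaller. In control NPCs, Ctgf and Amotl2 were higher at 12 kPa than at 0.5 kPa by more than 1.1-fold, and no included member was lower, where 17.9% of all included genes were higher and 16.9% lower. Amotl2 had a log2 ratio of 0.29, with a counting error of 0.022, and Ctgf of 0.26, with 0.065. Among included genes, 6.23% had a ratio as high as that of Amotl2 and 7.43% as that of Ctgf. Cyr61 had -0.07 and stayed within 1.1-fold. Ankrd1 had -0.25 with a counting error of 0.15, so that this difference is not detectable beyond counting at this depth. Yap1 (0.03), Wwtr1 (-0.06) and the 4 TEAD genes (-0.08 to -0.0012) all stayed within 1.1-fold. No included member passed 1.5-fold with stiffness, where 0.858% of included genes were higher and 0.963% lower in control NPCs, with shares of 0.458% and 0.324% after Srf knockdown.

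**Figure D4:**
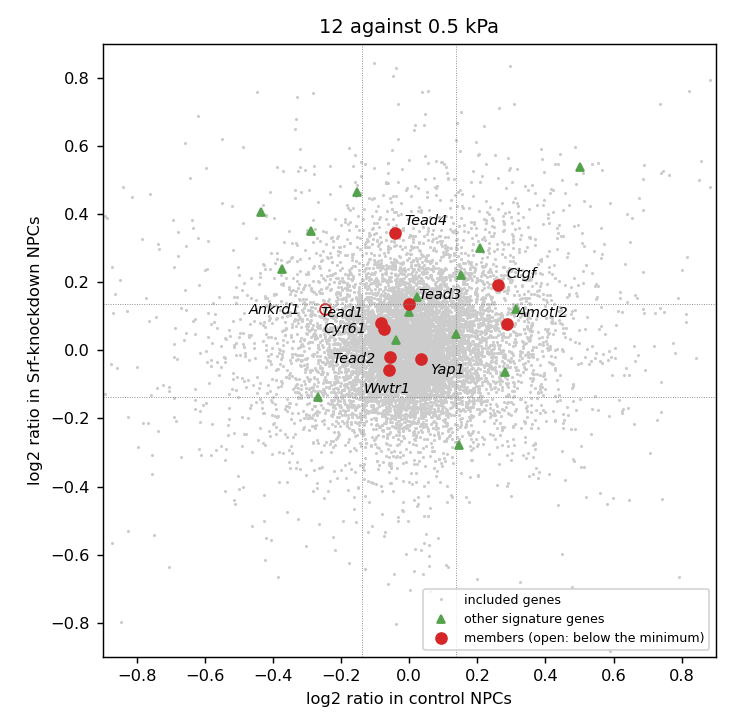
The 12 kPa over the 0.5 kPa library as a log2 ratio in control NPCs (x axis) and in Srf-knockdown NPCs (y axis), with symbols as in the plot of the knockdown ratios; 49 included genes lie outside the axes. Ctgf is the only member beyond the dotted 1.1-fold lines on both axes, and most members lie within them.

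In Srf-knockdown NPCs, Tead4 and Ctgf were higher at 12 kPa by more than 1.1-fold and no included member was lower, where 17.6% and 13.0% of included genes were. Tead4 had a log2 ratio of 0.35 with a counting error of 0.067, and Ctgf of 0.19 with 0.045. Tead3 had 0.136 and thus lay just inside the threshold, and it was 0.06 after centring for GC content. Amotl2 had 0.08, against 0.29 in control NPCs, a difference of -0.21 that has no replicate check. Yap1 (-0.03), Wwtr1 (-0.06), Tead1 (0.08), Tead2 (-0.02) and Cyr61 (0.06) were within 1.1-fold, as was Ankrd1 (0.12, counting error 0.19). Ctgf was the only included member that passed 1.1-fold the same way in each cell population, which held for 5.10% of included genes in that direction and for 3.24% in the other. No member was past 1.1-fold in opposite directions, which held for 6.01% of included genes.

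Of the genes commonly used as a signature of YAP/TAZ activity, 18 besides the targets above were examined, and 15 were included. In Srf-knockdown NPCs, 11 of the 15 were lower by more than 1.1-fold at 0.5 kPa and 10 at 12 kPa, 4 were higher at each stiffness, and 10 were lower at both. Of all included genes, 35.7% and 35.9% were lower, 37.4% and 37.6% higher, and 28.8% lower at both. Their median log2 ratio was -0.50 at 0.5 kPa and -0.42 at 12 kPa, where the median of all included genes was 0.011 and 0.010. With a minimum FPKM of 1 or 5 the median at 12 kPa was -0.31, and over all 18 genes with a pseudocount of 1 the medians were -0.30 at 0.5 kPa and -0.17 at 12 kPa. The lower genes included Dock5, an exchange factor for Rac (-1.86 and -1.72), Igfbp3, a secreted binding protein for insulin-like growth factors (-1.92 and -1.30), F3, the tissue factor of coagulation (-1.06 and -1.48), and Rbms3, an RNA-binding protein (-0.97 and -0.93). Past 2-fold were 4 lower genes at 0.5 kPa (Dock5, Igfbp3, F3 and Lats2) and 3 at 12 kPa, where 2.86% and 2.22% of included genes were. Ccdc80, a secreted matrix protein, was higher (0.58 and 1.22). Fjx1, Foxf2 and Nt5e were below the minimum. The list holds genes that other pathways are known to regulate too.

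**Figure D5:**
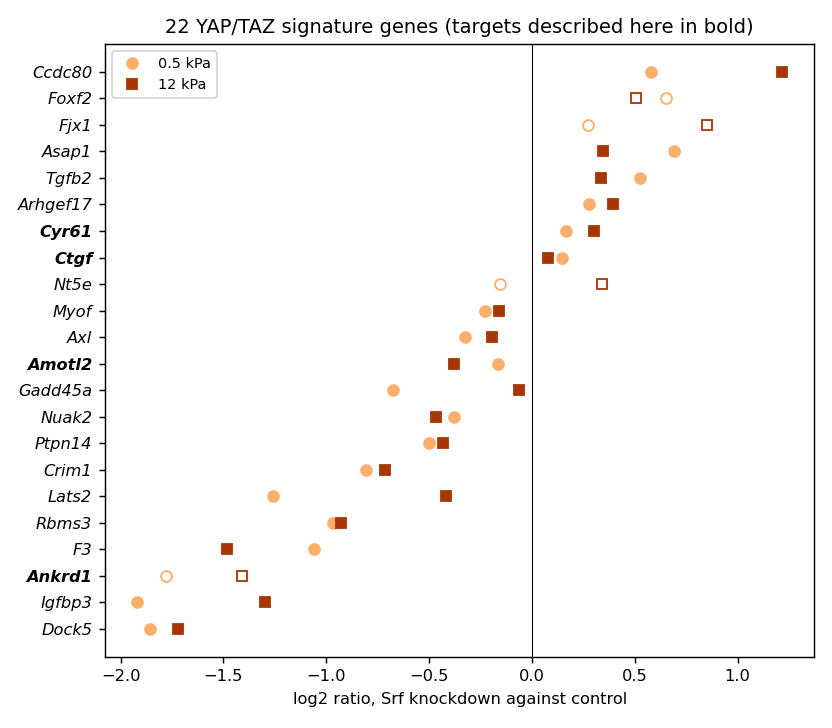
Srf-knockdown over control NPCs as a log2 ratio at 0.5 kPa (circles) and 12 kPa (squares) for the 22 signature genes in order of their mean ratio, with the targets described here in bold and open symbols for genes below the minimum. The ratios run from -1.92 for Igfbp3 to 1.22 for Ccdc80, and Ankrd1 lies among the lowest while Cyr61 lies above 0.

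With stiffness, the same 15 genes did not move one way in control NPCs. At 12 kPa, 6 were higher and 5 lower by more than 1.1-fold, with a median log2 ratio of 0.02, where 17.9% and 16.9% of all included genes were. In Srf-knockdown NPCs, 8 were higher and 1 was lower, where 17.6% and 13.0% of all included genes were, with a median of 0.16 against 0.0064 over all included genes. Rbms3 was higher in both populations (0.50 in control, 0.54 after Srf knockdown). Only 3 of the 15 passed 1.1-fold the same way in each population, all higher, and 5 passed it in opposite directions, against 5.10% and 6.01% of included genes.

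The genes upstream of YAP and TAZ were examined too. All 15 genes of the kinase core list, which holds the MST and LATS kinases and their partners, were included. In Srf-knockdown NPCs 10 were lower at each stiffness, 8 of them at both, and 2 were higher at both, and their median log2 ratios were -0.18 (0.5 kPa) and -0.26 (12 kPa). Of all included genes, 35.7% were lower at 0.5 kPa, 35.9% at 12 kPa and 28.8% at both, 30.3% were higher at both, and the medians were 0.011 and 0.010. Lats2, the kinase that phosphorylates YAP and is itself a YAP target (it is in the signature list as well), stood at an FPKM of 19.1 and 14.1 in control against 7.97 and 10.6 in Srf-knockdown NPCs. Its ratio was -1.26 at 0.5 kPa and -0.42 at 12 kPa. Stk3, which encodes MST2, had -0.40 and -0.59, and Frmd6, which encodes an upstream activator, had -0.48 and -0.26. The genes higher at both stiffnesses were Taok2 (0.45 and 0.43) and Taok3 (0.52 and 0.22), which encode kinases that activate MST. With stiffness, 1 of the 15 was higher and 2 lower in control NPCs, where 17.9% and 16.9% of all included genes were. In Srf-knockdown NPCs, 4 were higher and 3 lower, where 17.6% and 13.0% of all included genes were. Wwc1, which encodes the scaffold KIBRA, had -0.23 in control and 0.26 in Srf-knockdown NPCs.

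Of 17 further regulators of YAP, TAZ and TEAD, 15 were included, and Vgll1 and Vgll2 were below the minimum. In Srf-knockdown NPCs 4 were higher and 6 lower at 0.5 kPa, 6 were higher and 5 lower at 12 kPa, and 4 were higher and 5 lower at both. These counts lay near the shares of all included genes, which were 37.4% higher and 35.7% lower at 0.5 kPa, 37.6% and 35.9% at 12 kPa, and 30.3% and 28.8% at both. Vgll4, which competes with YAP for TEAD, was higher, with an FPKM of 28.8 and 30.2 in control against 51.0 and 54.7 in Srf-knockdown NPCs, and a log2 ratio of 0.82 and 0.86. Wtip, a LIM protein of the Ajuba family, was also higher (0.57 at both). Lower were Fat4, an atypical cadherin (-0.88 and -0.78), Vgll3, another TEAD cofactor (-0.38 and -0.58), and Ptpn14, a phosphatase that binds YAP and is in the signature list too (-0.50 and -0.43). With stiffness, 6 of the 15 were higher and 2 lower in control NPCs, where 17.9% and 16.9% of all included genes were. In Srf-knockdown NPCs, 6 were higher and 0 lower, where 17.6% and 13.0% of all included genes were. Fat4 was higher in both populations (0.32 in control, 0.42 after Srf knockdown), and Dchs1, its ligand, had -0.07 and 0.49.

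Of 8 close relatives of the targets, 5 were included, of which 2 were higher and 1 lower in Srf-knockdown NPCs at 0.5 kPa, and 3 higher and 2 lower at 12 kPa, where 37.4% and 35.7% of all included genes were at 0.5 kPa and 37.6% and 35.9% at 12 kPa. Among the CCN genes, Nov stood at an FPKM of 17.3 and 18.7 in control against 22.8 and 28.8 in Srf-knockdown NPCs, and Wisp1 had 13.6 and 17.6 in control against 13.97 and 14.1 in Srf-knockdown NPCs. Wisp2 stayed between 0.219 and 0.539 and Wisp3 between 0.164 and 0.310, so that Cyr61 was far above each of its relatives. Ankrd2 had at most 0.232 in any library, and Ankrd23 had 3.54 and 2.51 in control against 3.27 and 3.39 in Srf-knockdown NPCs. Of the motin genes, Amot had 35.1 and 37.5 in control against 45.7 and 42.9 in Srf-knockdown NPCs, and Amotl1 had 30.8 and 31.1 in control against 25.3 and 25.8 in Srf-knockdown NPCs. Amotl2 held the largest share of the 3 motin genes in each library, from 46.2% to 54.9% of their sum.

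The pattern of each included member over the 4 libraries was compared with all other included genes, by the distance between log2 FPKM values after each gene's mean was taken away. The gene with the pattern most like that of Yap1 was Grn (distance 0.0079), and those next to it were Timm29 and Copz1. Nearest to Wwtr1 were Ptchd1 (0.019), Ywhaz and Tpp2, and nearest to Tead1 were Myo19 (0.021), Ano6 and P3h4. Nearest to Tead2 were Cln3 (0.035), Add3 and Zfp275, and nearest to Tead3 were Fau (0.031), Slc46a1 and Itih2. For Tead4 they were Naprt (0.013) and Dusp12, for Ctgf Ccdc84 (0.026), Shprh and Prpf40b, for Cyr61 Arid1a (0.017), Zfp830 and Eef2, and for Amotl2 BC003331 (0.030), Vps36 and Eya1. Among the members themselves the most alike were Tead2 and Tead3 (0.13), with Tead3 at rank 60 among the genes nearest to Tead2. The least alike were Tead1 and Tead2 (1.51). With 4 libraries many genes share a pattern, and these distances are a description.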

How the data were processed

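Single-end reads were trimmed by the authors (cutadapt 1.9.1), mapped to mm10 with TopHat2 2.1.0 and Bowtie2 2.2.8 on a GENCODE annotation and kept at high mapping quality, and the deposited FPKM values were made by the authors with Cufflinks 2.2.1. The values were used without rescaling. Of 21997 rows, the 135 of symbols listed more than once were left out. Ratios are log2 without a pseudocount, genes above an FPKM of 2 in all 4 libraries were included, and 1.1-fold was the threshold, as in the methods. With 1 library for each condition nothing was tested.

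Reads were estimated for each library from FPKM values under 0.1 of genes with 1 annotated transcript longer than 1000 nucleotides, at the commonest value, which stands for 1 read (162 to 211 values in each library, with 200 nucleotides taken off the length). Counting errors follow from these reads and from the longest GENCODE M1 (NCBIM37) transcript, which matched 91.2% of included genes by symbol. They are approximate and cover reads only. Coordinates and promoter sequences are from RefSeq on GRCm38.p6, and its symbols for Ctgf and Cyr61 are Ccn2 and Ccn1.

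The members and lists were chosen with earlier results of these data known. Named from the lists were, by mean knockdown ratio, the 5 genes farthest from 0 and, by stiffness ratio in each population, the 2 farthest, beside all members, all paralogs and the 3 genes nearest in pattern to each included member, of which 1 is not reported here. Alternatives were other minimums, pseudocounts, scalings, thresholds and centring within 50 bins of transcript GC content. Python 3.11.15, numpy 2.4.6, pandas 2.3.3 and matplotlib 3.10.9 were used.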

Additional observations from a re-analysis of the deposited data

Results flagged for a closer look

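Of the 55 included genes of the members and pathway lists, 7 (12.7%) were past 1.1-fold in opposite directions with stiffness in control and in Srf-knockdown NPCs, none of them a member, where 6.01% of included genes were. With 1 library for each condition, none of these differences was tested. Given as the log2 ratio of 12 to 0.5 kPa in Srf-knockdown minus that in control NPCs, the difference was 0.84 for Lats2 (-0.43 in control and 0.41 in Srf knockdown), 0.78 for Limd1 (-0.45 and 0.33), 0.64 for Ccdc80 (-0.29 and 0.35), 0.62 for Igfbp3 (-0.15 and 0.47), 0.61 for Gadd45a (-0.37 and 0.24), 0.49 for Wwc1 (-0.23 and 0.26) and -0.42 for F3 (0.15 and -0.28). The counting errors of these ratios lay between 0.019 and 0.13.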

How the results depend on the processing

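No paired analysis was possible because no group held more than 1 library and the labels number no replicates, and Srf knockdown was compared with control within each stiffness. Counts of members depended most on the fold threshold, which follows from a stricter threshold. With stiffness, the 2 members higher in control and the 2 in Srf-knockdown NPCs became 1 and 1 at 1.2-fold and 0 and 0 at 1.5-fold and 2-fold. At 1.2-fold, 7.27% of included genes were higher in control and 5.99% in Srf-knockdown NPCs. These shares were 0.858% and 0.458% at 1.5-fold, and 0.124% and 0.0572% at 2-fold. Between Srf-knockdown and control NPCs at 0.5 kPa, the 4 higher members became 2 at 1.2-fold and 1.5-fold and 0 at 2-fold. The 4 lower ones became 1 at 1.5-fold and 0 at 2-fold. Of included genes, 26.5% were higher and 25.3% lower at 1.2-fold, 9.19% and 9.28% at 1.5-fold, and 2.45% and 2.86% at 2-fold. At 12 kPa the 3 higher members became 0 at 2-fold and the 3 lower ones 0 at 1.5-fold and 2-fold. The shares of included genes there were 10.2% higher and 8.88% lower at 1.5-fold, and 2.74% and 2.22% at 2-fold. With a minimum FPKM of 1, with the minimum of 2 in the compared libraries only, and without a minimum at a pseudocount of 1, Ankrd1 was included and 1 member in place of 0 was lower at 12 kPa in control NPCs. In these settings, in this order, 17.8%, 17% and 11.3% of the included genes were lower. With the first and last of these settings, lower members after Srf knockdown went from 4 to 5 at 0.5 kPa and from 3 to 4 at 12 kPa. The shares of included genes that were lower were then 35.8% and 21.8% at 0.5 kPa, and 36% and 21.8% at 12 kPa. The median of the signature genes between Srf-knockdown and control NPCs was -0.59 at 0.5 kPa with a minimum of 5 and -0.30 without a minimum at a pseudocount of 1. At 12 kPa it was -0.31 with a minimum of 1 or 5 and -0.17 without a minimum at a pseudocount of 1. Centring for GC content changed calls between Srf-knockdown and control NPCs. At 0.5 kPa, Cyr61 and Ctgf then fell within 1.1-fold and Yap1 passed it. At 12 kPa, the ratio of Tead4 changed sign from within 1.1-fold to lower by more than 1.1-fold. Of 349 ratios of single members under alternatives, 22 moved by more than about 2 counting errors. No ratio that was past 1.1-fold in the main setting changed sign.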
